A study of Saccharomyces cerevisiae with 219 samples.

Results

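The genes described here are 60 genes of ribosome biogenesis in Saccharomyces cerevisiae, out of 5710 genes with a probe on the arrays. They were chosen by name, from their known roles, as genes present on both array designs of the series, and each is represented by 1 probe per design. By role, 5 belong to the box C/D and U3 snoRNPs, 3 to the box H/ACA snoRNPs, 6 to the UTP-A complex, 6 to the UTP-B complex and 3 to the MPP10 complex. A further 16 are other factors of the small ribosomal subunit and 21 are factors of the large subunit.

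Ribosome biogenesis begins in the nucleolus, where RNA polymerase I transcribes a long precursor rRNA that is bound co-transcriptionally by the small subunit processome, a very large assembly of the U3 snoRNA and many proteins. Box C/D snoRNPs guide ribose methylation and box H/ACA snoRNPs guide pseudouridylation of the rRNA, while helicases, GTPases and nucleases carry out folding, cleavage and release of the pre-ribosomal particles. In yeast these genes are expressed together in growing cells, and their transcripts are among those lowered when growth stops or cells are stressed.

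The series holds 219 two-colour arrays in 7 experiments, most of them on S. cerevisiae S288c MATα, a strain that carries ura3-52 and mutations in HIS3, LEU2, LYS2 and TRP1, grown to stationary phase in rich medium with adenine, for 7 days where the labels state it. On each array the sample cDNA carried Cy5 and a common reference carried Cy3. The reference was an equal mix of stationary-phase and exponential-phase RNA, so each ratio compares the sample with that mix. Each array was then centred on its median log2 ratio. A value of 0 therefore stands for the median gene of that array and not for the level in the mix. Menadione, a quinone that generates superoxide inside cells, was added to stationary-phase cultures without a carbon source (50 µM in the labels of the 10 second course), and samples taken before addition are called T0.

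In the 30 minute course (38 arrays), cells were sampled for 8 h after menadione in 2 replicates at each of 16 times, with 6 T0 arrays. In the upshift course (32 arrays) stationary-phase cultures were moved to a higher temperature and sampled at the same 16 times in 2 replicates, with no T0 of their own. The 1 minute course (78 arrays) covered 1 to 35 min and 60 min after menadione with 2 replicates, with 6 T0 arrays, and the 10 second course (25 arrays) covered 10 to 180 s and 300 s with 1 array a time and 6 T0 arrays. The treatment of the 30 minute, 1 minute and upshift courses is named by the study's methods and not by the array labels. A further 12 arrays compared the temperature-sensitive RNA polymerase II strain rpb1-1 (MATa ura3-52 rpb1-1), a parental strain (MATα ura3-52) and S288c at 0, 2 and 30 min of menadione. Cell-free lysates of exponential or stationary-phase cells kept on ice with buffer, trypsin, proteinase K or Qiagen protease gave 28 arrays, 4 of them from stationary-phase cells that had 2 min of menadione before lysis, and 6 arrays compared 3 RNA isolation methods.

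Usable values per array ranged from 941 to 6605, and the array intensities were not analysed here, so signal over background is unknown. The 60 genes had values in 109 to 219 of the 219 arrays with a median of 185.5, and 38 had a value in at least 80% of them. MAK16, a nucleolar factor of the large subunit, was the 1 gene with values in fewer than 50% of the arrays. Some arrays are shared between experiments or go against their labels. The T0 arrays of the 30 minute and 1 minute courses pair 1 to 1 with correlations of 0.977 to 0.981 over genes, and 2 T0 arrays of the 10 second course have the values of the S288c 0 min arrays of the polymerase experiment (r = 0.999). The S288c 2 min and 30 min arrays of that experiment are arrays of the 1 minute course (r = 1.00), and 2 lysate arrays, the second buffer and the second trypsin array of cells after 2 min of menadione, match the 30 min upshift arrays (r = 0.991 and 0.994).

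The main question of the 30 minute course is how transcript abundance changed through 8 h of oxidative stress. Genes were tested with limma where at least 80% of all arrays in the fit, compared or not, had a value. Each time or group compared also needed a value. A gene is said to rise or fall where the Benjamini-Hochberg adjusted p was under 0.05 and the difference at least 2-fold. The 3 time windows and the upshift below are set against the same 6 T0 arrays, so their values are given side by side. The T0 samples themselves held these transcripts below the array centre. Their array medians over the 60 genes were -1.50 at the lowest, -1.01 at the median and -0.74 at the highest. The arrays of 0.5 to 2 h gave -0.75, -0.59 and -0.20, mostly higher, with ranges that overlap only at the edge, and those of 5 to 8 h gave -1.45, -1.13 and -0.57, inside the T0 range apart from the top. Over the same windows the cytosolic ribosomal protein median went from -3.64 (T0) to -2.60 (0.5 to 2 h) and then to -4.98 (5 to 8 h).

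At 0.5 to 2 h against T0, 43 of the 60 genes could be tested. Of these 4 rose and 1 fell, while 12.9% of all 3758 genes tested rose and 10.2% fell, so the shares of the 43 that were called were not above that background as fitted. The count of 5 changed when single T0 arrays were left out, and was 8 without T0 replicate 2. A fit without replicate 1 or 2 of the course has 1 array at each treated time. Its spread comes from the T0 arrays alone, so its count cannot be set beside 5. The median difference of the 43 was 0.58 on the log2 scale against 0.05 for all genes tested, and 37 of the 43 differences were positive. Without centring, 28 rose and 1 fell, where the all-gene median shifted by 1.12. With the replicate number as a block, 5 rose and 2 fell. That fit sets the course against only the T0 arrays numbered 1 and 2.

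At 5 to 8 h against 0.5 to 2 h, 14 of 43 tested genes fell and 1 rose, against 14% and 5.89% of the 3717 genes tested. The median difference was -0.63 for the 43 and -0.11 for all genes tested. By role, those that fell were 3 of 5 tested box C/D and U3 genes, 3 of 3 box H/ACA genes, 2 of 11 other small subunit factors and 6 of 16 large subunit factors, and 0 of 2 tested UTP-A and 0 of 3 tested UTP-B genes. Among 65 tested genes of a separate list of other ribosome biogenesis factors, 12 fell and 0 rose (median -0.52), among 6 RNA polymerase I subunit genes 1 fell and 0 rose (median -0.38), and 123 of 130 ribosomal protein genes fell (median -2.38). Without centring 11 members fell and 0 rose. Markers of stationary phase moved the other way, with array medians of 2.00 at T0, -0.73 at 0.5 to 2 h and 1.36 at 5 to 8 h, and heat shock markers stood at -0.90 at T0 and 1.17 at 5 to 8 h. Their part in these differences was not tested.

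**Figure D1:**
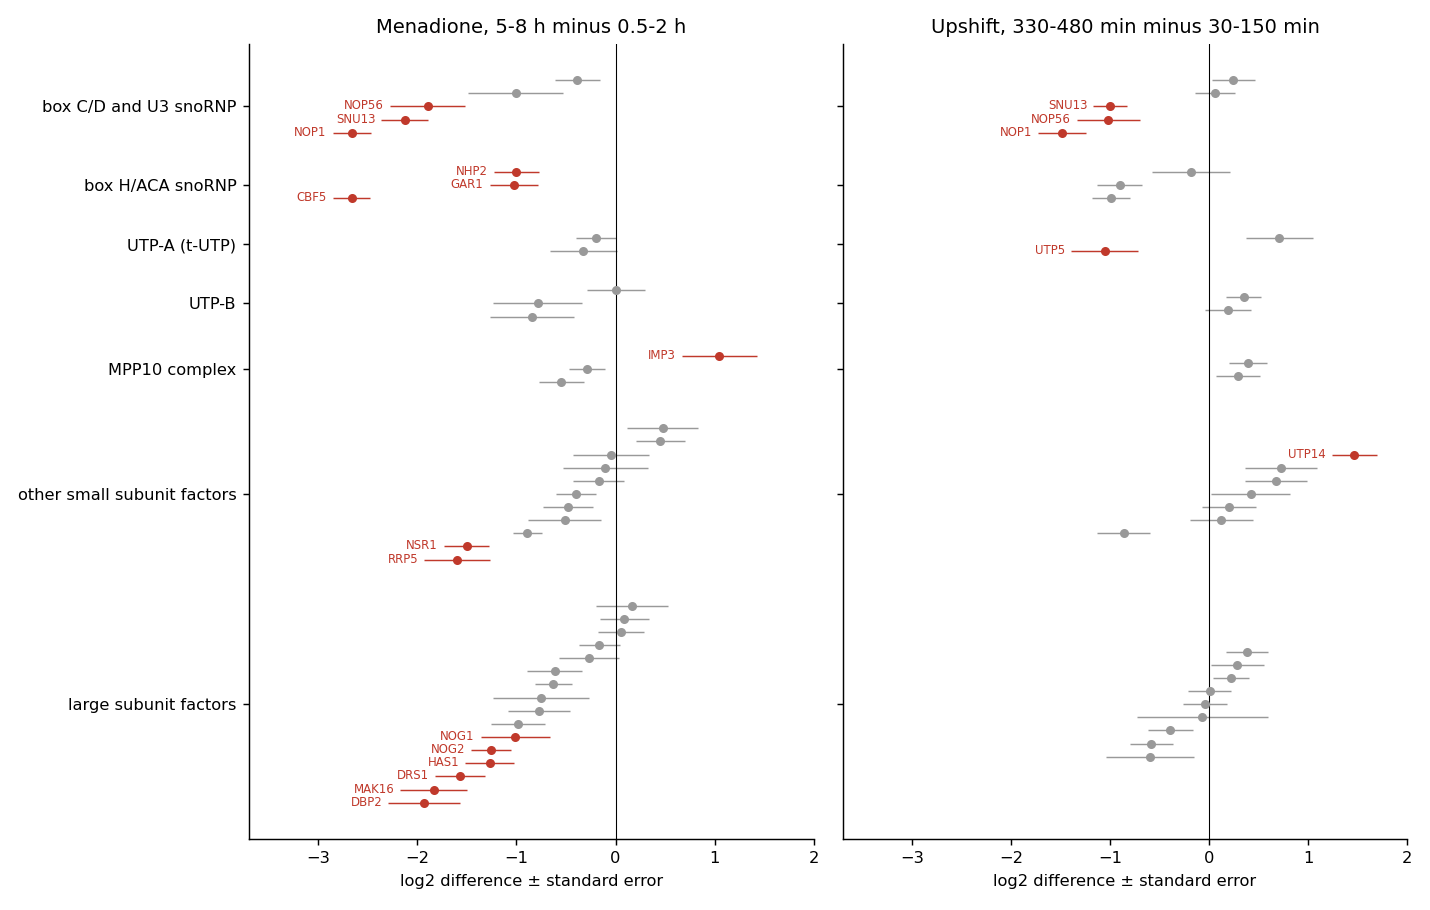
Log2 difference with its standard error for the tested genes, grouped by role, between the late and early windows of the menadione course (left) and the upshift course (right), with red points for genes that passed both the adjusted p and the 2-fold threshold. In the comparison of 5 to 8 h with 0.5 to 2 h, 14 genes lie in red below 0 and 1 above it.

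Among the box C/D and U3 genes, NOP1 encodes fibrillarin, the ribose methyltransferase of the box C/D snoRNPs. Its centred log2 ratio was -3.99, -2.91 and -2.44 (lowest, median, highest of 6 arrays) at T0, -2.34, -1.77 and -1.07 in 8 arrays at 0.5 to 2 h, -4.31, -3.57 and -2.34 in 10 arrays at 2.5 to 4.5 h and -5.13, -4.30 and -3.79 in 14 arrays at 5 to 8 h. All early arrays lay above all T0 arrays, and all arrays of 5 to 8 h lay below all early arrays. The late difference from the early window was -2.66 ± 0.20 (SE, limma adjusted p = 3.38e-11). NOP1 had risen by 1.28 ± 0.24 over T0 in the early window (adjusted p = 0.000185) and stood 1.38 ± 0.22 below T0 in the late one, a log2 difference of -1.38 (adjusted p = 1.17e-05). The early difference was 0.99 without replicate 1 of the course, just under the 2-fold threshold, and 0.85 with the replicate block, and without centring the late difference from T0 was -0.23.

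SNU13, which binds the kink-turn of box C/D snoRNAs, had T0 values of -2.88, -2.05 and -1.69, early values of -1.65, -1.25 and -0.59 and late values of -4.22, -3.30 and -2.43. Its early arrays lay above T0 without overlap, and its late arrays lay below the early ones without overlap. The late difference from the early window was -2.13 ± 0.23 (limma adjusted p = 4.56e-08) and from T0 -1.15 ± 0.26 (adjusted p = 0.000846). NOP56 and NOP58 are the paired scaffold proteins of the same particle. NOP56 had values of -1.28, -0.88 and -0.38 early and -4.55, -2.64 and -1.44 late, which do not overlap, and fell by 1.90 ± 0.38 (adjusted p = 0.000305). NOP58 ran from -2.01 to -0.52 early and from -4.23 to -0.84 late with a difference of -1.01 ± 0.48 (adjusted p = 0.11), which passed with the replicate block (adjusted p = 0.035), and RRP9, a U3-specific protein, had -0.39 ± 0.22 (adjusted p = 0.199).

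All of the box H/ACA genes fell between the windows. CBF5 encodes the pseudouridine synthase of these particles, and its values were -1.96, -1.66 and -1.41 at T0, -1.40, -0.74 and -0.61 early, -3.06, -2.56 and -1.46 in 9 arrays of 2.5 to 4.5 h, and -4.58, -3.45 and -2.61 late. The early arrays lay above T0 and the late arrays below both, each without overlap. CBF5 differed by -2.66 ± 0.19 between late and early (limma adjusted p = 3.1e-11) and by -1.85 ± 0.21 between late and T0 (adjusted p = 1.17e-07), the largest fall from T0 among the tested members. Without centring the difference from T0 was -0.70 and did not pass.

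GAR1, a core H/ACA protein, had values of -3.95, -3.20 and -2.75 early and -5.01, -4.24 and -3.68 late, with overlap, and fell by 1.03 ± 0.25 (limma adjusted p = 0.00169). NHP2, another core protein, had values in 5 of 8 early arrays (-0.70, -0.56 and 0.06) and 13 late arrays (-1.99, -1.46 and -1.16), which do not overlap. It fell by 1.00 ± 0.22 (adjusted p = 0.00164), at the edge of the 2-fold threshold, and was not called with the replicate block (-0.90).

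**Figure D2:**
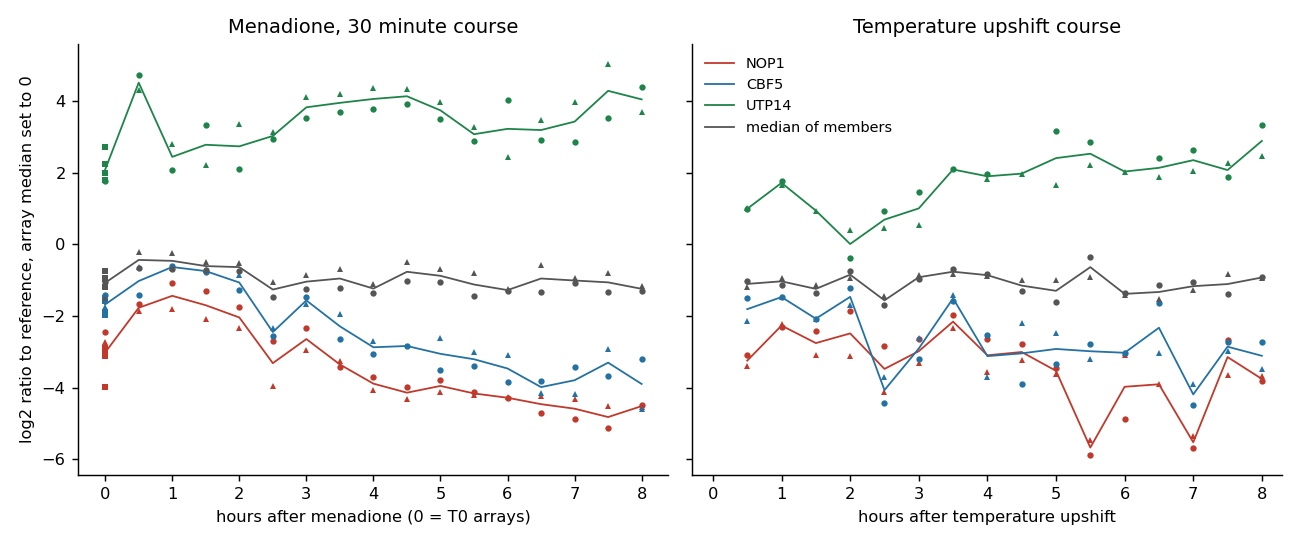
Centred log2 ratio of NOP1, CBF5, UTP14 and the median of the 60 genes against hours after menadione (left, T0 at 0) and after the temperature upshift (right). Lines are means of the 2 replicates (circles and triangles), squares are further T0 arrays. NOP1 and CBF5 are above T0 at 0.5 to 2 h (medians -1.77 and -0.74) and below it at 5 to 8 h (-4.30 and -3.45).

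The UTP-A and UTP-B complexes bind the beginning of the precursor rRNA and the U3 snoRNP. Between late and early windows UTP15 and UTP5 of UTP-A differed by -0.32 and -0.20, and UTP18, UTP13 and UTP6 of UTP-B by 0.01, -0.79 and -0.84, none of which passed the threshold. UTP6 was among the genes that rose early. Its T0 values in 5 arrays were -2.47, -2.23 and -1.24 and its early values -1.13, 0.06 and 1.10, which do not overlap, with a difference of 1.91 ± 0.52 (limma adjusted p = 0.00701), a call lost with the replicate block (1.80). PWP2, a WD-repeat protein of UTP-B, ran from -3.59 to -1.42 at T0 and from -1.82 to -0.31 in 6 early arrays.

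In the MPP10 complex, which joins the U3 snoRNA to the precursor, the members differed in direction. IMP3 had T0 values of 0.98, 1.90 and 2.64, and early values of -1.20, -0.93 and 0.38 in 6 arrays, the 1 member whose early arrays all lay below T0. Its difference was -2.59 ± 0.42 early (limma adjusted p = 9.33e-05) and -1.54 ± 0.36 late (adjusted p = 0.00216), with late values of -0.27, 0.19 and 1.24. It was thus the 1 member that rose between the windows, by 1.05 ± 0.38 (adjusted p = 0.0382). Its late difference from T0 did not pass without centring (-0.57) or with the replicate block (-0.82).

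IMP4 had T0 values of -0.33, 0.38 and 0.89 and late values of -1.61, -0.99 and -0.26, with overlap at the edge, and fell by 1.28 ± 0.25 (limma adjusted p = 0.000205). MPP10 itself ran from -0.38 to 0.74 at T0 and from -0.57 to 0.91 late, with nearly equal medians of 0.16 and 0.15.

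Of the other small subunit factors, NSR1 and RRP5 fell between the windows and UTP14 and RRP3 moved the other way from T0. NSR1, a nucleolin-like protein, had values of -3.56, -3.21 and -2.47 at T0, -2.84, -2.06 and -1.65 early and -4.46, -3.59 and -2.87 late. Late and early arrays did not overlap, and the difference was -1.50 ± 0.23 (limma adjusted p = 7.85e-06). RRP5, which acts in both subunits' pathways, had values of -1.84, -1.52 and -0.57 early and -6.01, -2.82 and -1.75 late, with overlap at the edge, and fell by 1.60 ± 0.33 (adjusted p = 0.000432).

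UTP14, an activator of a processome helicase, was above the array centre at T0 (1.77, 2.01 and 2.71). It went to 2.08, 3.07 and 4.72 early, 2.93, 3.85 and 4.36 at 2.5 to 4.5 h and 2.44, 3.52 and 5.05 late. The late arrays overlap T0 at the edge, and the rise over T0 was 1.03 ± 0.30 early (limma adjusted p = 0.00932) and 1.48 ± 0.27 late (adjusted p = 8.43e-05). RRP3, a DEAD-box helicase needed for small subunit rRNA, had T0 values of -2.44, -1.40 and -0.66, early values of -0.78, -0.39 and 0.19 and late values of -1.20, 0.40 and 1.28. It rose by 1.58 ± 0.39 late (adjusted p = 0.00221). UTP20, a large processome component, ran from -1.52 to -0.41 in 5 T0 arrays and from -1.65 to 0.26 in 13 late arrays.

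Among the large subunit factors, the genes that fell from the early to the late window included 3 helicases and a pair of GTPases. DBP2, a DEAD-box helicase, had values of -3.66, -2.79 and -1.90 early and -6.57, -4.71 and -4.08 in 12 late arrays, without overlap, and fell by 1.93 ± 0.36 (limma adjusted p = 0.000163). DRS1, a helicase of large subunit assembly, had values of -1.10, -0.89 and -0.20 early and -3.55, -2.25 and -1.23 late, again without overlap, and fell by 1.57 ± 0.25 (adjusted p = 2.25e-05). HAS1, a helicase that acts on both subunits, had values of -1.87, -0.94 and -0.33 early and -2.92, -2.46 and -1.61 late, which overlap, and fell by 1.27 ± 0.25 (adjusted p = 0.000237).

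NOG2, a GTPase of the nuclear pre-ribosome, had values of -1.24, -0.80 and -0.25 early and -3.20, -2.09 and -1.48 late, which do not overlap, and fell by 1.26 ± 0.20 (limma adjusted p = 1.49e-05). NOG1, a nucleolar GTPase, had values of -1.65, -0.78 and -0.27 early and -3.23, -1.57 and -0.44 late, and fell by 1.01 ± 0.35 (adjusted p = 0.0274). MAK16 had values of -1.88, -0.87 and -0.39 in 7 early arrays and -4.18, -2.94 and -1.44 in 13 late arrays, and fell by 1.83 ± 0.34 (adjusted p = 0.000143). The ranges of NOG1 and MAK16 overlap. NOP12, a protein of large subunit rRNA processing, rose early by 1.13 ± 0.33 (adjusted p = 0.011), from -3.74, -2.86 and -1.61 to -2.58, -1.66 and -1.08. That call was lost without replicate 2 of the course (0.81), T0 replicate 1 (0.97) or T0 replicate 2 (0.95).

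Against T0 directly, 44 of the 60 genes were tested at 5 to 8 h, of which 2 rose and 8 fell, while 10.5% and 15.5% of all genes tested did so. The genes that rose were UTP14 and RRP3, and those that fell were CBF5, IMP3, NOP1, IMP4, MAK16, DRS1, SNU13 and DBP2. The fall of DBP2 was 1.01 ± 0.39 (limma adjusted p = 0.0447). The median difference was -0.29 against -0.18 for all genes tested. With the replicate block 5 rose and 8 fell, and 7 of the 10 genes were called in both fits. Without centring 9 members rose and 0 fell, where the all-gene median shifted by 0.97, so these directions are relative to the centre of each array.

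The upshift course asked how the same cells responded to heat. The arrays of 330 to 480 min were compared with those of 30 to 150 min within the course, and 30 of the 60 genes could be tested. Of them 1 rose and 4 fell, against 1.6% and 2.83% of 2756 genes. The median difference was 0.09, beside 0.04 for all genes tested. Of 32 tested genes on the list of other ribosome biogenesis factors 0 rose and 1 fell. The 4 that fell were 3 box C/D genes and 1 UTP-A gene, and the 1 that rose was UTP14.

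NOP1 had values of -4.13, -2.96 and -1.86 in 10 arrays of 30 to 150 min and -5.89, -3.90 and -2.66 in 11 arrays of 330 to 480 min, with wide overlap of the ranges, and fell by 1.48 ± 0.24 (limma adjusted p = 0.00022). SNU13 had values of -2.13, -0.94 and -0.35 early and -2.37, -2.21 and -1.47 late and fell by 1.00 ± 0.17 (adjusted p = 0.000229). NOP56 ran from -5.20 to -1.53 early and from -5.83 to -3.05 late and fell by 1.02 ± 0.32 (adjusted p = 0.0383). UTP5, a UTP-A protein, ran from -3.00 to -0.88 early and from -3.82 to -1.23 late and fell by 1.05 ± 0.34 (adjusted p = 0.0424). The calls of NOP56 and UTP5 were lost when the 30 min arrays, which match lysate arrays, were left out (differences of -1.04 and -0.94). The H/ACA genes NHP2 and CBF5 differed by -0.99 ± 0.19 (adjusted p = 0.00153) and -0.90 ± 0.23 (adjusted p = 0.00851), under the 2-fold threshold.

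UTP14 went the other way, with values of -0.38, 0.95 and 1.78 in 9 early arrays and 1.88, 2.28 and 3.32 in 11 late arrays, without overlap, and rose by 1.47 ± 0.23 (limma adjusted p = 0.000216). At 180 to 300 min it stood between them, at 0.55, 1.90 and 3.17.

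Set against the T0 arrays of the 30 minute course, 31 of the 60 genes were tested at 30 to 150 min of upshift, and 2 rose and 2 fell against 7.97% and 3.83% of 2875 genes. With the replicate number as a block 5 rose and 2 fell, and RRP3 (6.09) was the 1 gene called in both fits. Course and treatment cannot be told apart in this comparison. RRP3 had the largest difference found for any of the 60 genes, 6.39 ± 0.42 on the log2 scale (limma adjusted p = 1.99e-12). Its values were -2.44, -1.40 and -0.66 at T0 and 2.92, 5.28 and 5.94 after the shift, without overlap, and it stayed at 2.70, 5.92 and 6.38 at 180 to 300 min and 3.46, 5.96 and 6.90 at 330 to 480 min. Heat shock marker genes rose in the same arrays, 8 of 8 with a median difference of 4.04, and their relation to RRP3 was not tested.

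SNU13 rose by 1.05 ± 0.21 (limma adjusted p = 0.000444) and UTP14 fell by 1.22 ± 0.25 (adjusted p = 0.000762) over the same comparison. The SNU13 call was lost without replicate 1 of the upshift course (0.76), T0 replicate 5 (1.00, just under the 2-fold threshold) or T0 replicate 6 (0.90). NOP56 fell by 1.01 ± 0.36 (adjusted p = 0.0428), a call lost without replicate 2 of the upshift course or any of T0 replicates 1, 3, 5 and 6 (differences from -1.07 to -0.79). Without centring 4 members rose and 0 fell, so the falls of UTP14 and NOP56 are relative to the centre of the array.

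The polymerase experiment gave further levels of RRP3. By the study's methods its cells were kept at the nonpermissive temperature before T0, which is in doubt for the S288c arrays. In rpb1-1 it was 5.30 and 4.32 at 0 min, 5.70 at 2 min and 5.34 at 30 min. In the parental strain it was 4.43 and 2.33 at 0 min, 2.08 at 2 min and 2.38 at 30 min, and in S288c it was 0.18 and 1.05 at 0 min, 1.00 at 2 min and 2.24 at 30 min. The 4 rpb1-1 values lie above all S288c values and overlap the parental ones. The S288c arrays are those that also stand in other courses, for which the methods name no such step. Whether those cells were kept at that temperature is therefore not known. Strain, temperature and course cannot be told apart where rpb1-1 is set against S288c.

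This experiment asked whether changes after menadione needed RNA polymerase II. Only 8 of the 60 genes passed the filter for the mean change over the 3 strains from 0 min to 2 and 30 min, since as few as 4 members had a value on an array. Of these 0 rose and 3 fell, against 23.9% and 18.1% of 1235 genes, with a median of -0.44 beside 0.24 for all genes tested. NSR1 was 0.11 on the 1 rpb1-1 array at 0 min with a value, -1.16 at 2 min and -4.34 at 30 min. In the parental strain NSR1 was -0.09 and 1.01 at 0 min, -1.99 at 2 min and -2.92 at 30 min, and in S288c 0.02 and 0.45, then -2.68 and -2.54. NSR1 was thus lower at 2 and 30 min than at 0 min in each strain, with a mean difference of -2.87 ± 0.31 (limma adjusted p = 0.00397). In S288c the 0 min arrays and the later arrays also stand in different courses, so course and menadione cannot be told apart there.

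CBF5 was -0.66 at 0 min in rpb1-1, -2.21 at 2 min and -2.07 at 30 min. In the parental strain it was -0.70, then -1.96 and -2.04, and in S288c 1.82 and 2.40, then -2.62 and -1.46. The mean difference was -2.31 ± 0.27 (limma adjusted p = 0.0081). In rpb1-1 and in the parental strain it rests on the 1 array at 0 min with a value for CBF5, and in S288c on arrays that also stand in different courses. RRP9 fell by 1.08 ± 0.33 (adjusted p = 0.041), a call lost on leaving out any array at 0 min except rpb1-1 replicate 2 (differences from -1.23 to -0.84).

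The difference of the response between rpb1-1 and its parent was tested for 8 members, and 0 passed in either direction against 9.58% and 7.39% of 1367 genes. By limma, 2 of the 8 had an unadjusted p under 0.05. They were NUG1, a GTPase of large subunit export, at 2.52 ± 0.74 (adjusted p = 0.0672), and RLP7, a ribosomal-protein-like factor, at -2.33 ± 0.61 (adjusted p = 0.0815). For NSR1 and CBF5 the differences were 0.06 and -0.17. The 0 min S288c arrays stand apart from other stationary-phase arrays, with ribosomal protein medians of 1.70 and 1.72, and S288c left out of the fit gave 0 members called.

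The 1 minute course covered the first hour of menadione more densely. At 1 to 10 min against T0, 50 of the 60 genes were tested, and 6 rose and 6 fell against 20.7% and 16.3% of 3749 genes. With the replicate number as a block 10 of 48 rose and 9 fell, and 9 of the 12 genes were called in both fits. The median difference was 0.05 beside 0.13 for all genes tested. The T0 arrays are of another array design than the treated arrays, so design and menadione cannot be told apart here. Marker genes of menadione stood at a median of 0.20 in this course and 1.25 in its T0 arrays, beside 4.69 at 0.5 to 2 h of the 30 minute course. Without centring 10 members rose and 0 fell, where the all-gene median shifted by 0.54.

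RRP3 again had the largest difference, from -3.42, -1.13 and 0.91 in 5 T0 arrays to 0.52, 1.87 and 2.50 in 20 arrays, with the ranges overlapping in part (3.01 ± 0.38, limma adjusted p = 3.88e-09). The UTP-B genes UTP6 and PWP2 differed by 1.56 ± 0.36 (adjusted p = 0.000253) and 1.04 ± 0.34 (adjusted p = 0.00853), UTP4 of UTP-A by 1.10 ± 0.40 (adjusted p = 0.0198) and UTP23, a factor of small subunit processing, by 1.09 ± 0.37 (adjusted p = 0.0128). GAR1 differed by 1.49 ± 0.39 (adjusted p = 0.00108), with T0 values of -6.35, -3.38 and -2.55 and treated values of -2.96, -2.27 and -1.08. Its call was lost without T0 replicate 4 (0.96), and the difference was 1.11 without replicate 1 of the course.

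Among those that fell, SNU13 had T0 values of -2.95, -2.05 and -1.85 and treated values of -4.98, -3.38 and -2.83, a difference of -1.28 ± 0.20 (limma adjusted p = 2.81e-07). NOP1 had T0 values of -3.25, -2.76 and -2.51 and treated values of -4.77, -3.91 and -3.16 (-1.04 ± 0.17, adjusted p = 1.61e-06). IMP4 had -0.36, 0.28 and 0.79 and then -1.47, -1.11 and -0.72, without overlap (-1.36 ± 0.14, adjusted p = 1.39e-11). SNU13 and NOP1 overlap T0 at the edge. RRP8, a methyltransferase of large subunit rRNA, fell by 1.38 ± 0.21 (adjusted p = 4.21e-07), and NOP16 and NOG1 fell by 1.31 ± 0.44 and 1.19 ± 0.44.

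Within the treated arrays, where design does not change, few genes passed the thresholds. At 26 to 35 min against 1 to 10 min, 51 of the 60 genes were tested, 1 rose and 0 fell, against 0.108% and 0% of 3720 genes, and 16 of the 51 had an unadjusted p under 0.05 by limma. The median difference was 0.22 beside -0.00 for all genes tested, and the array medians over the members were -1.18, -0.76 and -0.41 early and -0.71, -0.54 and -0.31 late. The gene that rose was NOP16, a factor of large subunit biogenesis, from -3.37, -0.93 and 0.62 in 18 arrays to -0.47, 0.28 and 0.80, with overlap (1.14 ± 0.28, adjusted p = 0.0326). It had 0.52 as its T0 median. Without replicate 1 of the course the fit took its spread from the T0 arrays alone, so its count is not comparable.

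In the 10 second course 57 of the 60 genes were tested, the largest number of all the comparisons. Against T0, 0 rose and 0 fell at 10 to 60 s, where 0.0226% and 0.0679% of 4420 genes did so, and 0 and 0 at 130 to 180 s, where 0.407% and 0.86% did so. By limma 9 of the 57 had an unadjusted p under 0.05 in each comparison. The medians were -0.13 and -0.15 beside 0.01 and -0.03 for all genes tested. Without centring 14 and 47 members rose and 0 fell, where the all-gene medians shifted by 0.83 and 1.50.

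The 2 T0 arrays shared with the polymerase experiment stand apart in this group, with NOP1 at 1.26 and 2.60 against -1.06 to -0.76 in the other 4. At 10 to 60 s NOP1 was -1.30, -0.84 and -0.49, and at 130 to 180 s -1.22, -1.11 and -0.84, both overlapping the other 4 T0 arrays. With those 2 arrays left out, a choice made after the data were seen, 0 members were called again, and 5 and 6 had an unadjusted p under 0.05. At 130 to 180 s the NOP56 difference was then 0.68 ± 0.14 (limma adjusted p = 0.0121), that of NOP7, a large subunit factor, 0.68 (adjusted p = 0.0327) and that of SNU13 -0.58 (adjusted p = 0.0251), all under 2-fold. With all 6 T0 arrays SNU13 had -1.48 ± 0.40 (adjusted p = 0.053).

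**Figure D3:**
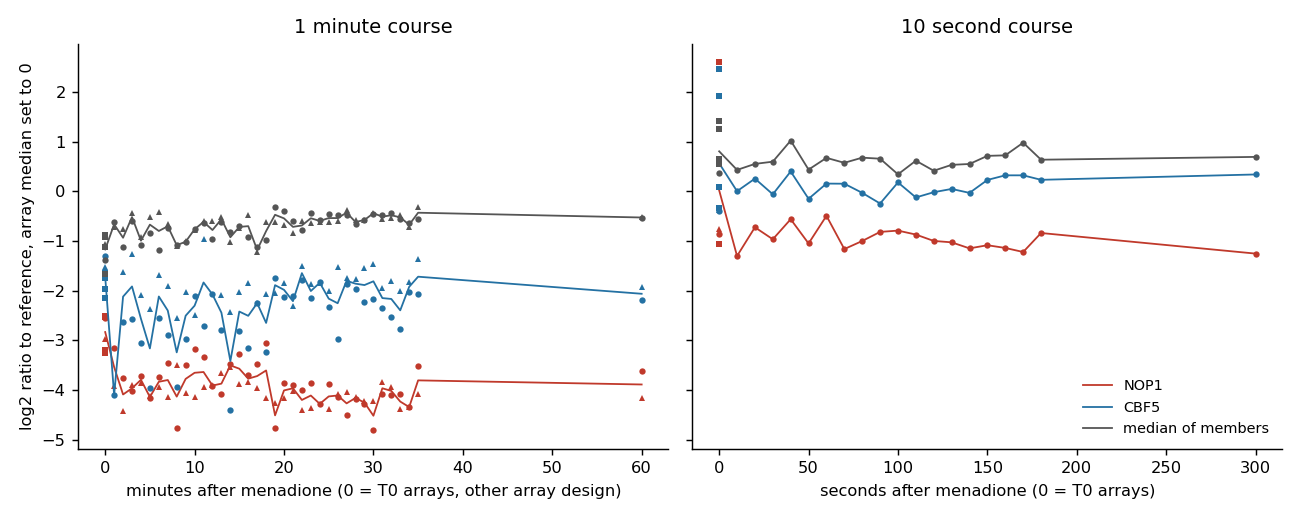
Centred log2 ratio of NOP1, CBF5 and the median of the 60 genes through the 1 minute course and the 10 second course, with T0 at 0. The 2 T0 arrays of the 10 second course with NOP1 at 1.26 and 2.60 lie far above the other 4.

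The lysate experiment asked how protease treatment of a cell-free lysate changed the recovered transcripts. In lysates kept in buffer, 18 of the 60 genes could be tested between stationary-phase and exponential cells, and 1 rose and 5 fell against 19% and 17.9% of 2410 genes. The median difference was -1.21 beside 0.02 for all genes tested, and 120 of 125 ribosomal protein genes fell (median -4.08). Without centring 0 rose and 16 fell, where the all-gene median shifted by -2.26.

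NOP1 had values of 4.33, 4.64 and 5.82 in the 6 exponential buffer arrays and -4.39, 0.21 and 6.25 in the 6 stationary-phase ones. The stationary-phase values ranged by experiment, with -4.21 and -4.39 on the trypsin pair, -0.63 and 1.04 on the Qiagen protease pair and 1.80 and 6.25 on the proteinase K pair. The difference was -4.97 ± 1.06 (limma adjusted p = 0.00737). SNU13 had 3.93, 4.88 and 5.88 in exponential lysates and -3.68, 0.80 and 6.03 in stationary-phase lysates (-4.37 ± 0.85, adjusted p = 0.00595).

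The proteinase K buffer array with the value of 6.25 is labelled stationary phase, but its ribosomal protein median of 4.50 and stationary-phase marker median of -8.56 lie with those of exponential lysates. Within the proteinase K experiment alone the NOP1 difference was -0.48 and that of SNU13 -0.17, and 0 members were called. NSR1 fell by 4.07 ± 0.94 (limma adjusted p = 0.0104), RRP9 by 2.12 ± 0.78 (adjusted p = 0.0423) and NHP2 by 2.00 ± 0.67 (adjusted p = 0.0315). NOP16 rose by 1.25 ± 0.45 (adjusted p = 0.0362) and had -1.10 without centring. Its call was lost in 9 of the 12 alternatives that left out 1 buffer array.

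After protease, 0 of 17 tested members changed in stationary-phase lysates, 0 of 22 in exponential lysates and 0 of 17 in the difference between them. No gene of the 2399, 2461 and 2304 tested passed in either direction (0%). The lysate fits also held the 4 arrays of cells after 2 min of menadione, so these entered the filter and the spread estimate. Their replicate pairs were far apart, with member medians of 1.21 and -1.15 in buffer and 1.29 and -1.14 with trypsin. By limma, 4, 0 and 3 of the members had an unadjusted p under 0.05. NOP1 in stationary-phase lysates after protease was 3.49 and 3.86 with Qiagen protease, 4.04 and 4.30 with proteinase K and 0.76 and 0.99 with trypsin, each pair above its own buffer pair except for the proteinase K buffer array at 6.25. The difference was 2.93 ± 1.06, and NSR1 and SNU13 had 4.00 ± 1.00 and 2.16 ± 0.85 (adjusted p = 0.204 for each). Without the proteinase K buffer array that lies with the exponential ones, 4 members were called. The proteinase K protease arrays labelled stationary phase also had ribosomal protein medians (4.05 and 4.16) like those of exponential lysates (3.52 to 4.28). In each of the 3 protease experiments alone 0 members were called. Each lysate was split between buffer and protease, and a fit with the lysate as a block also called 0 of 17, 0 of 21 and 0 of 17 members, with unadjusted p under 0.05 for 3, 2 and 5. In it NSR1, NOP1 and SNU13 in stationary-phase lysates had standard errors of 0.74, 0.97 and 0.74 around the same differences (adjusted p = 0.240 for each). In exponential lysates NOP1 had -1.91 ± 1.15 (adjusted p = 0.992).

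**Figure D4:**
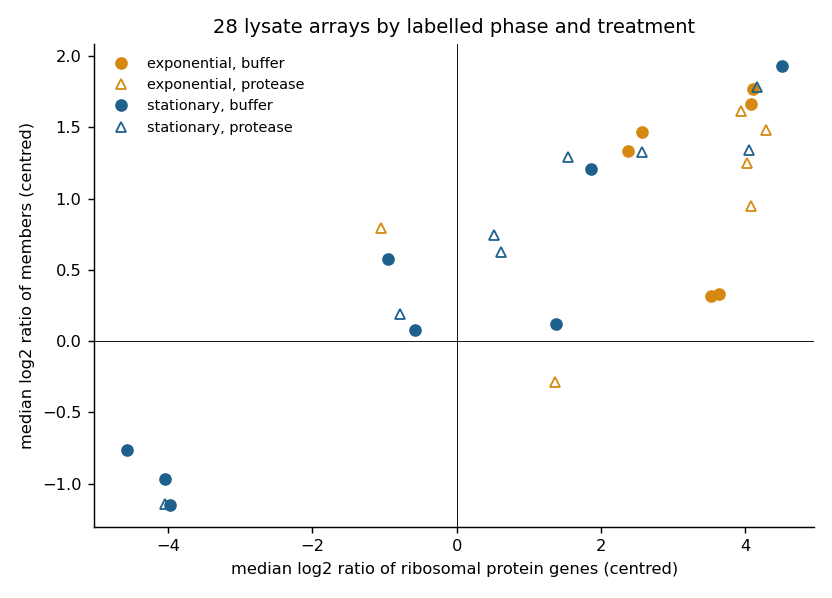
Median of the members against the median of the ribosomal protein genes in each of the 28 lysate arrays, orange for exponential and blue for stationary-phase cells, circles for buffer and open triangles for protease. The proteinase K arrays labelled stationary phase with ribosomal protein medians of 4.05 to 4.50 lie among the exponential arrays.

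The last experiment compared RNA isolation methods. With 2 arrays a method, 51 of the 60 genes were tested. Hot phenol RNA gave 2 genes higher and 7 lower than the laboratory's own modified Gentra method, against 7.5% and 5.3% of 4736 genes, with a median of -0.71 beside 0.01 for all genes tested. Without centring the counts were 2 and 14. The spread of all genes was smaller on the hot phenol arrays, at SDs of 0.58 and 0.60 against 0.77 and 0.96.

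NOG1 was 1.25 and 1.24 with the own method and -0.46 and -0.24 with hot phenol (-1.59 ± 0.16, limma adjusted p = 0.00765). NOG2 was 1.84 and 1.46, then -0.20 and -0.07 (-1.79 ± 0.22, adjusted p = 0.0102). SOF1, a small subunit processome protein, went from -2.45 and -1.73 to -0.30 and -0.02 and was 1.93 ± 0.28 higher (adjusted p = 0.0137). Each of these pairs is apart from the other by more than its own spread. NSR1 and CBF5 fell by 1.73 ± 0.21 and 1.07 ± 0.21, and RRP12, NOP58 and NOP15 also fell, by 1.40, 1.30 and 1.06. NOP8, a large subunit factor, rose by 1.49 ± 0.25. Without hot phenol replicate 2, 0 members were called, without replicate 1 of that method 1, and without replicate 1 of the own method 3.

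Proteinase K during isolation gave 1 gene higher and 7 lower, against 10.7% and 15.1% of 4736 genes, with a median of -0.07 beside -0.01. RRP3 went from 1.02 and 0.86 to -2.09 and -1.70, the largest difference (-2.84 ± 0.19, limma adjusted p = 0.00157). The UTP-A gene UTP8 went from 0.87 and 0.97 to -0.88 and -1.17 (-1.94 ± 0.17, adjusted p = 0.00211). NOP56 went from 1.20 and 1.13 to -0.28 and -0.05 (-1.33 ± 0.18, adjusted p = 0.00532). NSR1, UTP10, UTP21 and NOG2 were the other genes that fell, by 1.36, 1.59, 1.58 and 1.08. The 1 gene that rose was NOP16, from 0.86 and 0.67 to 1.94 and 2.36 (1.39 ± 0.25, adjusted p = 0.0124). Ribosomal protein genes fell in the same comparison, 116 of 128. The UTP10 call was lost without replicate 1 of the own method (-1.07) or without proteinase K replicate 1 or 2 (-2.06 and -1.13), and that of NOP16 without proteinase K replicate 2 (1.18).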

How the data were processed

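The arrays carried 6979 probes for 5710 genes on 1 design and 6819 probes for 5691 genes on the other. From spotted oligonucleotide arrays scanned with GenePix, the authors deposited background-subtracted ratios of sample (Cy5) over reference (Cy3), linear in all experiments except the 10 second course, whose deposited values are log2. Per the methods Arabidopsis CAB RNA was added to each labelling reaction for normalization within a slide. The labels of the 10 second course state values normalized to it, and it is not stated whether the other deposited ratios had been divided by it. The analysis plan had assumed log2 values throughout. Here linear ratios were turned to log2, and ratios at or below 0 and an out-of-range marker value were set to missing. Ratios at or below 0 made up 3.25 to 37.9% of an array's values in the lysates. They made up 0.157 to 23.7% in the polymerase experiment and at most 15.1% in the others with linear ratios. The lowest ratios are thus missing unequally between arrays. Several probes for 1 gene entered as their mean, and each array was centred on its median. An array-wide change of all transcripts is removed by this centring. How many probes passed background could not be computed, since no intensities were used.

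A gene was tested where 80% or more of all arrays in the fit measured it, including arrays outside the comparison, and each compared group had a value. Tests used limma 3.58.1 (R 4.3.3) with Benjamini-Hochberg adjustment over all genes tested, separately for each experiment. A call needed an adjusted p under 0.05 and a 2-fold difference. The script was tested on simulated data first. Tables and plots used Python 3.11.15, NumPy 2.4.6, pandas 2.3.3 and Matplotlib 3.10.9. Replicates of the courses may share cultures, so p-values measure the spread between arrays, and an array that stands in more than 1 experiment is the same measurement. The methods treat each replicate time course as a block, so same-numbered arrays of a course are paired, and buffer and protease arrays of a number share a lysate. Deviations of same-numbered arrays correlated over 0.1 in 115 of 120 pairs of times in the 30 minute course, 621 of 630 in the 1 minute course and 92 of 120 in the upshift. The sources do not say which T0 number belongs to which course. The members and lists were chosen with earlier results of these data known. All 60 members could be named, with a panel of 10 given where a comparison turned on them, plus up to 3 called members with the largest difference in each direction and values in at least 80% of arrays. Alternatives changed the centring, the share of arrays with a value, the spread of the arrays and the replicate block, and left out single replicates or experiments. Arrays of 11 to 25 min, 60 min, 70 to 120 s and 300 s stood on neither side of a comparison. The same holds for the lysates of cells after 2 min of menadione. All of these arrays were part of the fits of their experiments, so they entered the filter and the spread estimate.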

Additional observations from a re-analysis of the deposited data

Results flagged for a closer look

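In groups of 4 to 6 T0 arrays with a value, 82 values of the named genes were examined for an array far from the others by Dixon's criterion, and 10 had one. Chance alone marks about 1 in 20 such groups. In the 30 minute course NOG1 was -0.90 on T0 replicate 1 against -1.73 to -1.44 on the others, and NOP16 was -1.62 on T0 replicate 2 against 0.44 to 0.92. In the 1 minute course GAR1 was -6.35 on T0 replicate 4 against -3.79 to -2.55, and NOP8 was -1.51 on T0 replicate 2 against -0.20 to -0.05. On T0 replicate 5 of that course UTP6 was -1.07 against -2.28 to -2.21 and SNU13 was -2.95 against -2.24 to -1.85.

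In the 10 second course NOP58 was 2.09 on T0 replicate 4 against -0.72 to 0.07, and DBP2 was -4.15 on the same array against -0.82 to -0.42. That array is 1 of the 2 shared with the polymerase experiment. On T0 replicate 3 UTP6 was 0.28 against 1.34 to 1.67, and UTP14 was -2.56 against 0.74 to 1.77.

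Lysates of stationary-phase cells taken after 2 min of menadione stood on neither side of a comparison, though they were part of the lysate fits. Their median over the members was 1.21 in buffer replicate 1 (37 members with a value) and -1.15 in replicate 2 (57 members), and 1.29 and -1.14 in the trypsin replicates 1 and 2 (40 and 58 members). The replicate pairs thus differ in sign, and the second of each pair matches an upshift array.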

How the results depend on the processing

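Requiring a value in every array left 3 at 0.5 to 2 h against T0 (5 as reported), 5 at 5 to 8 h against T0 (10), 5 at 5 to 8 h against 0.5 to 2 h (15), 3 at 1 to 10 min (12), 0 at 26 to 35 min (1), 1 in the late against early upshift (5), 2 in the upshift against T0 (4), 0 in the polymerase experiment (3) and 3 between lysates (6), and gave 1 at 130 to 180 s (0). Centring on genes with a value in every array also gave 1 at 130 to 180 s. Without centring there were 29 at 0.5 to 2 h, 0 at 26 to 35 min, 14 and 47 in the 10 second comparisons, 16 between buffer lysates, 7 for protease in stationary-phase lysates (0) and 16 for hot phenol (9), and NOP16 between buffer lysates turned to -1.10. At 0.5 to 2 h a value in 50% of arrays gave 8 and scaling each array to 1 spread, an alternative chosen after the data were seen, gave 3.

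Leaving out 1 replicate gave 4 to 12 members at 0.5 to 2 h (12 without replicate 1, 8 without replicate 2, 8 without T0 replicate 2), 8 to 11 at 5 to 8 h against T0, 11 in each case at 5 to 8 h against 0.5 to 2 h, 6 to 13 at 1 to 10 min, 0 to 1 at 26 to 35 min, 0 at 10 to 60 s, 0 to 1 at 130 to 180 s, 2 to 5 in the upshift against T0 (2 without replicate 2, 2 without T0 replicate 5), 0 to 3 in the polymerase experiment, 0 to 2 for rpb1-1 minus parental, 3 to 8 between buffer lysates, 0 to 4, 0 and 0 for the protease comparisons, 0 to 7 for hot phenol and 5 to 10 for proteinase K isolation. Likewise chosen after the data were seen, leaving out the 30 min upshift arrays gave 3 in the late against early upshift, S288c left out gave 0 in the polymerase experiment, and the proteinase K or the Qiagen experiment alone gave 0 between lysates (trypsin alone 5). In the courses, fits without replicate 1 or 2 had 1 array at each treated time and took their spread from the T0 arrays alone. Their counts and lost calls are not comparable with those of the main fits. Of the alternatives for named genes 440 kept direction and call, 86 lost the call and 1 reversed.

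With the replicate block, 7 members were called at 0.5 to 2 h, 13 at 5 to 8 h against T0, 15 at 5 to 8 h against 0.5 to 2 h, 19 at 1 to 10 min, 1 at 26 to 35 min, 5 in the late against early upshift, 7 in the upshift against T0, 6 for hot phenol, 8 for proteinase K isolation and 0 in each protease comparison. In isolation 0 of 3 pairs of methods and in lysates 11 of 91 pairs of groups had same-numbered arrays that correlated over 0.1. No block could be fitted for the 10 second, polymerase and stationary against exponential comparisons, nor a left-out replicate for the late against early upshift. The number of arrays, not signal over background, sets the precision known here.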
